A study of Mus musculus with 9 samples.

Results

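Dpt, Dpep1, Pi16, Gsn, Ly6a, Cd34, Dpp4 and Clec3b are genes used as markers of resting fibroblasts, and their RNA was followed here in the mouse left ventricle after infarction. They are 8 of the 55367 gene symbols in a table of read counts, picked by symbol across all 9 libraries, and all 8 were among the 15138 genes that passed the filter on low counts. Because their own values in these libraries stood behind that choice, the levels and changes of the 8 genes are given as a description and without a p-value. Where any of them is named as called at an adjusted p, this too is a description, and no conclusion rests on it. The libraries form 3 groups of 3. The MI+BPD group is ventricle at day 14 after myocardial infarction (MI) with BPD treatment, which the study aims at the proliferative phase of healing. The MI group is infarcted ventricle at day 14 without BPD, and the sham group had surgery without an infarct and carries no time of its own. The tissue is infarct core together with the zone around it, which sham hearts lack, so comparisons with sham may also differ in the region sampled. The sources used here give no strain, age, sex or genotype, no identity or dose of BPD, and do not say whether each library is 1 animal, so p-values measure only the spread between these libraries.

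Resting fibroblasts lie between heart muscle cells and around vessels, where they keep up the collagen network. After an infarct they divide, take on an activated state that makes collagens and periostin, and build the scar. In mouse tissues, fibroblasts that express Dpt and Pi16 have been described as a general state close to vessels from which specialised fibroblasts can arise. Several of the 8 genes are not limited to fibroblasts: Cd34 and Ly6a are also made by endothelial and blood progenitor cells, Gsn by many cell types, and Dpp4 by T cells.

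Total counts were 17006222 to 17424302 in MI+BPD, 19101748 to 19269072 in MI and 14451410 to 17703461 in sham libraries. Levels are in CPM, read counts scaled to library size with trimmed mean of M values (TMM) factors. Beside each log2 fold change stands its standard error (SE) from an edgeR quasi-likelihood model of the 9 libraries. The summed level of 10 general fibroblast markers (Pdgfra, Tcf21, Dcn and others) was 9104 to 9848 CPM in MI+BPD, 7506 to 10830 CPM in MI and 1139 to 1267 CPM in sham. Of these 10 markers, 10 rose in MI+BPD and 10 in MI, each against sham. The summed level of 12 cardiomyocyte markers was 38276 to 57999 CPM in MI+BPD, 23033 to 40126 CPM in MI and 102893 to 107049 CPM in sham. Within the infarct groups, the libraries MI+BPD 1 and MI 3 were the highest in this muscle sum. The scaling matters for comparisons with sham: the median gene stood at a log2 fold change of 0.81 in MI and 0.57 in MI+BPD with library totals alone, and at 0.07 and 0.04 with TMM. With library totals alone, 85.6% of the calls in MI against sham were higher, against 53.6% with TMM. The mitochondrial share of counts was 17.6% to 25.7% in MI+BPD, 11.4% to 18.2% in MI and 34.4% to 35.2% in sham. Its part in the difference between the scalings was not tested.

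The 8 genes did not move as a block after infarction. Dpt, Pi16 and Cd34 were several-fold higher in infarcted than in sham ventricle, Gsn was moderately higher, Ly6a, Dpp4 and Clec3b overlapped with sham in both infarct groups, and Dpep1 was lower than sham in MI and above it in MI+BPD. In MI against sham, 4 of the 8 were among the genes called higher at an adjusted p under 0.05 (Dpt, Pi16, Cd34, Gsn) and 1 was among those called lower (Dpep1), where 37% of all genes tested were called higher and 31.9% lower (68.9% in all). In MI+BPD against sham, the same 4 were called higher and 0 lower, where 31.8% of all genes were called higher and 27.8% lower (59.6% in all). The libraries of 4 members in MI lay above all sham libraries (40.1% of all genes) and those of Dpep1 below them (34.3%), and in MI+BPD those of 5 members lay above (35.8%). These counts describe the chosen genes, and nothing is read from them. The median log2 fold change of the 8 was 0.53 in MI+BPD and 0.53 in MI, each against sham, beside a median of 0.04 and 0.07 over all genes. With library totals alone 7 of the 8 were called higher in MI, where 69.3% of all genes were, and 7 of the 8 in MI+BPD, where 60.3% were, while 0 were called lower in MI (11.7% of all genes). Relative to the median gene, 6 of 8 lay above it in MI+BPD and 5 of 8 in MI, with TMM and with library totals alone. In bulk tissue, fewer cells of a type and less RNA per cell cannot be told apart.

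**Figure D1:**
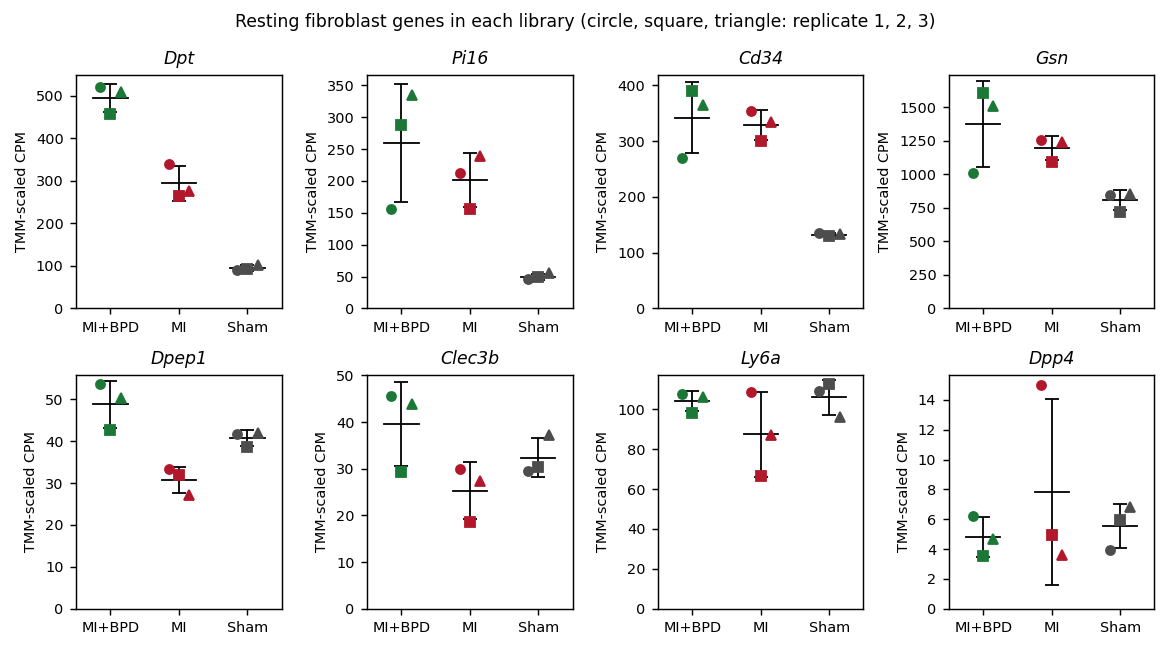
TMM-scaled CPM (vertical axis, from 0) of the 8 genes in MI+BPD, MI and sham libraries; each point is a library, the long bar is the mean and the error bar the SD of 3 libraries. Dpt shows 3 separate levels, highest in MI+BPD (456.8 to 519 CPM), Dpep1 is lowest in MI (27.2 to 33.3 CPM), and in Dpp4 a single MI library stands at 15.004 CPM.

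The promoters are shown for Dpt and Cd34, which were higher in every infarct library than in sham, and for Dpep1, which was not. They are the 250 bases before the start site, from RefSeq on GRCm38.p6, plus strand, at chr1:164796413-164796662 for Dpt, chr1:194938571-194938820 for Cd34 and chr8:123185985-123186234 for Dpep1. Capitals mark matches to 4 short motifs on either strand: TATAAA (a core promoter element), CAGCTG (an E-box, bound by basic helix-loop-helix factors), TGANTCA (AP-1) and GGAATG (TEAD).
Dpt: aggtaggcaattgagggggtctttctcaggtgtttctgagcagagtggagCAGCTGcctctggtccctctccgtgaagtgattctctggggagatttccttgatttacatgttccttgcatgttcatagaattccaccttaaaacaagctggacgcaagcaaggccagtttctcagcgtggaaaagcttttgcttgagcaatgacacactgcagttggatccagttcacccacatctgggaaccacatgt
Cd34: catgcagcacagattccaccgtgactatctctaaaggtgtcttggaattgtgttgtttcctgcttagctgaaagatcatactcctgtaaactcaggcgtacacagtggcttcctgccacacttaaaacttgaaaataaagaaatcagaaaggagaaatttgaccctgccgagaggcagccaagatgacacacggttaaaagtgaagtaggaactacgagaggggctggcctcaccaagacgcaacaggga
Dpep1: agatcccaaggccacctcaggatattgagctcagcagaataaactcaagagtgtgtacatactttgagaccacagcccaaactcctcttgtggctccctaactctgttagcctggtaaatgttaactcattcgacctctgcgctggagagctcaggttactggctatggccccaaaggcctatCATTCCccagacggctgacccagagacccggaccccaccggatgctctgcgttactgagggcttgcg

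Of the 8 genes, 6 had a RefSeq promoter, in 8 windows because Gsn has 3. The E-box CAGCTG was found in Dpt, 200 bases before its start, and in 2 of the Gsn windows, and 13.0% of 32851 promoter windows of this length hold it. GGAATG was found on the minus strand in Dpep1, 67 bases before its start, and in Dpp4, with 12.6% of all windows holding it. TATAAA was found in Dpp4, 227 bases before its start and so near the far end of the window (12.4% of all windows), and TGANTCA in 0 of the 6 genes (6.75% of all windows). Dpt, Pi16 and Cd34, the 3 genes with the largest increase, had no motif of these 4 in common in the 250 bases searched, and nothing about any factor is drawn from that.

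Dpt encodes dermatopontin, a small secreted matrix protein that binds decorin and takes part in collagen fibril assembly. It stood at 519, 457 and 507 CPM in MI+BPD, at 340, 265 and 276 CPM in MI, and at 89.8, 91.7 and 102 CPM in sham (replicates 1, 2 and 3). All MI+BPD libraries were above all MI libraries, and all MI libraries above all sham libraries. The log2 fold change was 2.39 ± 0.13 (SE) in MI+BPD against sham, 1.64 ± 0.13 in MI against sham and 0.75 ± 0.12 in MI+BPD against MI.

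Clec3b encodes tetranectin, a secreted lectin-like protein that binds the kringle domains of plasminogen. It stood at 45.7, 29.4 and 43.9 CPM in MI+BPD, at 30.05, 18.5 and 27.4 CPM in MI, and at 29.6, 30.4 and 37.2 CPM in sham. The 3 groups overlapped pairwise, with MI+BPD 2 inside the MI range and MI 1 inside the sham range. The log2 fold change was 0.29 ± 0.21 in MI+BPD and -0.36 ± 0.21 in MI, each against sham, and 0.65 ± 0.21 in MI+BPD against MI.

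Gsn encodes gelsolin, which severs and caps actin filaments inside cells and scavenges actin in plasma. It was the most abundant of the 8 by CPM, with 1010, 1610 and 1508 CPM in MI+BPD, 1256, 1095 and 1239 CPM in MI, and 848, 721 and 855 CPM in sham. All infarct libraries were above all sham libraries, and MI+BPD 1 was the lowest of the infarct libraries. Its log2 fold change was 0.77 ± 0.19 in MI+BPD and 0.57 ± 0.19 in MI, each against sham. The call in MI ended with a replicate block, without MI 1 (log2 fold change 0.53) and without any 1 of the sham libraries (0.49 to 0.61).

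Dpep1 encodes a membrane dipeptidase that cleaves cysteinylglycine and turns leukotriene D4 into leukotriene E4. It stood at 53.6, 42.6 and 50.3 CPM in MI+BPD, at 33.3, 31.8 and 27.2 CPM in MI, and at 41.7, 38.6 and 41.9 CPM in sham. The groups did not overlap: MI libraries were the lowest, sham libraries lay between, and MI+BPD libraries were the highest. On the log2 scale the change was 0.26 ± 0.11 in MI+BPD against sham, -0.40 ± 0.11 in MI against sham and 0.67 ± 0.11 in MI+BPD against MI. With library totals alone MI was above sham instead (log2 fold change 0.34), so the position of Dpep1 against sham depends on the scaling. Its change in MI+BPD against sham, which was not called, was called as higher in 6 of 18 alternatives, 2 of which left out 1 library: MI+BPD 2 (0.35) or MI 3 (0.26).

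Dpp4 encodes CD26, a surface peptidase that removes dipeptides from the ends of chemokines and incretin hormones and marks Pi16-positive fibroblasts as well as T cells. It had few reads, with 104, 69 and 92 counts in MI+BPD, 379, 122 and 78 counts in MI, and 43, 68 and 89 counts in sham. On the CPM scale these were 6.23, 3.54 and 4.67 in MI+BPD, 15.004, 4.97 and 3.59 in MI, and 3.93, 5.95 and 6.79 in sham. The library MI 1 stood apart from the other 8 libraries, which overlapped. The log2 fold change of MI against sham was 0.50 ± 0.50 with all libraries and -0.38 without MI 1, and that of MI+BPD against MI was -0.72 ± 0.49 and 0.16 without MI 1. The summed level of 10 T cell markers was 8.09 to 12.3 CPM in MI+BPD, 15.3, 13.7 and 8.19 CPM in MI 1, MI 2 and MI 3, and 2.21 to 4.03 CPM in sham. Bank1, a scaffold protein of B cells, stood at 6.14 CPM in MI 1 and at 1.47 and 1.56 CPM in MI 2 and MI 3, with none of the T cell markers at 0 in any group. The summed level of 8 markers of mesothelium, the lining of the heart's surface, also stood apart in MI 1. It was 131, 14.6 and 28.2 CPM in MI+BPD, 279, 58.2 and 14.5 CPM in MI and 16.5 to 33.2 CPM in sham. The part of lymphocytes and of mesothelium in the Dpp4 level of MI 1 was not tested.

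Pi16 encodes a CAP-family protein of the cell surface. It stood at 157, 288 and 334 CPM in MI+BPD, at 212, 155 and 239 CPM in MI, and at 45.6, 48.8 and 55.3 CPM in sham. All infarct libraries were above all sham libraries, and MI+BPD and MI overlapped. Pi16 changed by 2.38 ± 0.27 in MI+BPD and 2.02 ± 0.27 in MI against sham on the log2 scale, close to the size seen for Dpt in MI+BPD.

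Cd34 encodes a sialomucin that binds L-selectin when suitably glycosylated and is found on fibroblasts, endothelium and blood progenitors. It stood at 270, 391 and 365 CPM in MI+BPD, at 354, 300.2 and 334 CPM in MI, and at 135, 129 and 133 CPM in sham. Every infarct library was above every sham library, and the infarct groups overlapped. Cd34 had a log2 fold change of 1.37 ± 0.14 in MI+BPD and 1.31 ± 0.14 in MI, each against sham.

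Ly6a encodes Sca-1, a small protein held at the membrane by a lipid anchor and used in mouse to mark fibroblast, endothelial and stem cell subsets. It stood at 108, 98.2 and 106 CPM in MI+BPD, at 109, 66.5 and 86.8 CPM in MI, and at 109, 113 and 95.9 CPM in sham. All 3 groups overlapped, and MI 2 was the lowest of the 9 libraries. Its log2 fold change was -0.03 ± 0.16 in MI+BPD and -0.28 ± 0.16 in MI, each against sham, and neither was called. Without MI 1 it was called lower in MI (-0.46), with 29.1% of all genes, and with library totals alone it was called higher in both infarct groups (0.50 in MI+BPD and 0.46 in MI), so its direction depends on the scaling. Ly6a has close relatives in the Ly6 family, and how reads shared between them were counted is not given in the sources used here, so its count is uncertain. The summed level of 14 endothelial markers, cells that also make Cd34 and Ly6a, was 1634 to 1830 CPM in MI+BPD, 1475 to 1802 CPM in MI and 2250 to 2766 CPM in sham, with 0 of the 14 at 0 counts. These markers were split: 1 rose, 8 fell and 5 did not pass in MI against sham, and 1, 7 and 6 in MI+BPD. Over all genes tested, 37% were called higher and 31.9% lower in MI, and 31.8% and 27.8% in MI+BPD. The marker that rose was Erg (0.51 in MI+BPD and 0.69 in MI). The part of endothelial cells in the levels of Cd34 and Ly6a was not tested.

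The order of the 8 genes, set per kilobase of GENCODE M21 exon sequence, was led by Gsn in each group, with 436 CPM per kilobase in MI+BPD, 379 in MI and 256 in sham. In sham, Ly6a (87.9) was above Dpt (54.8), Clec3b (32.7), Cd34 (18.2), Dpep1 (16.4), Pi16 (7.84) and Dpp4 (0.879). In MI, the order after Gsn was Dpt (170), Ly6a (72.5), Cd34 (45.2), Pi16 (31.8), Clec3b (25.5), Dpep1 (12.4) and Dpp4 (1.24). Dpt was thus below Ly6a in sham and above it in MI. Cd34 was below Clec3b in sham and above it in MI, where its libraries (41.2 to 48.5) did not overlap with those of Clec3b (18.7 to 30.3), while those of Pi16 (24.4 to 37.5) did. In MI+BPD, Dpt reached 287 and Ly6a 86.3, followed by Cd34 (46.9), Pi16 (40.8) and Clec3b (39.98), whose libraries overlapped with each other, then Dpep1 (19.6) and Dpp4 (0.762). The sources used here do not name the authors' annotation, so these lengths may differ from those they counted over. Each length joins the exons of all annotated isoforms (7290 bases for Cd34, 6364 for Pi16 and 992 for Clec3b). Exons of isoforms not made in this tissue would thus lower a gene's place. By CPM without a length, Cd34 (132) was above Clec3b (32.4) in sham too.

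Set against Pdgfra, the receptor that marks fibroblasts in any state, 5 of the 8 genes were lower in every infarct library than in any sham library, as were 77.5% of all genes tested, and nothing is read from that count. Pdgfra itself stood at 166 ± 19.9 CPM in MI+BPD, 173 ± 17.1 CPM in MI and 57.3 ± 3.91 CPM in sham (SD, n = 3). The log2 ratio to Pdgfra does not depend on how libraries are scaled. For Dpep1 it was -1.43, -2.11 and -1.74 in MI+BPD, -2.52, -2.43 and -2.53 in MI, and -0.52, -0.45 and -0.50 in sham. For Clec3b it was -2.65 to -1.66 in MI+BPD, -3.21 to -2.51 in MI and -1.02 to -0.67 in sham. For Ly6a it was -0.91 to -0.42 in MI+BPD, -1.37 to -0.81 in MI and 0.70 to 1.09 in sham. Pdgfra itself changed by 1.53 in MI+BPD and 1.59 in MI against sham on the log2 scale. A gene level with sham in CPM would thus fall by about as much in this ratio. In MI+BPD the mean ratio fell by less than that for Dpep1 (-1.27) and Clec3b (-1.25), and by about as much for Ly6a (-1.55). In MI the ratio of each of these genes fell by more than Pdgfra rose. The infarct libraries of these 3 genes lay below the sham libraries. Gsn also lay below, at 2.81 to 3.17 in MI+BPD and 2.67 to 2.99 in MI, against 3.77 to 3.85 in sham. Cd34 was the fifth, by a narrow margin, with 0.90 to 1.12 in MI+BPD, 0.81 to 1.10 in MI and 1.17 to 1.30 in sham. Dpt and Pi16 were not lower relative to Pdgfra. The Dpt ratio was 1.31 to 1.85 in MI+BPD, above every other library, and 0.63 to 0.84 in MI, overlapping with 0.58 to 0.80 in sham. The Pi16 ratio was 0.12 to 0.99 in MI+BPD, above sham (-0.39 to -0.098), and -0.14 to 0.61 in MI, which overlapped with sham. The Dpp4 ratio was -5.70 to -4.53 in MI+BPD, below sham (-3.93 to -3.12), and -5.45 to -3.67 in MI, which overlapped.

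**Figure D2:**
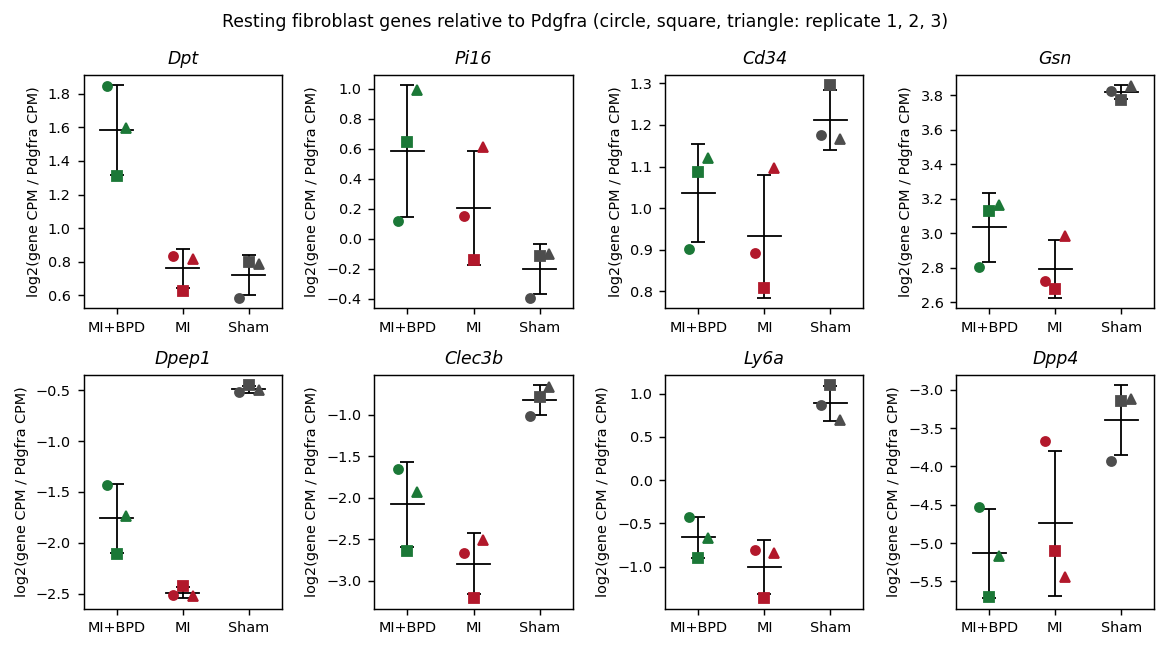
Log2 ratio of each gene's CPM to that of Pdgfra (vertical axis) in MI+BPD, MI and sham libraries; points are libraries, the long bar is the mean and the error bar the SD of 3. Gsn, Dpep1, Clec3b and Ly6a are lower in every infarct library than in sham, and the Dpt ratio is highest in the 3 MI+BPD libraries (1.31 to 1.85).

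Other genes of resting interstitial and vessel-associated fibroblasts, a list of 30 without the 8, also split. In MI against sham 23 rose, 5 fell and 2 did not pass (edgeR, adjusted p under 0.05), and in MI+BPD against sham 21 rose, 3 fell and 6 did not pass. Over all genes tested, 37% were called higher and 31.9% lower in MI, and 31.8% and 27.8% in MI+BPD. The list was written with results of these data known, so its counts are descriptions. Their median log2 fold change was 1.51 in MI+BPD and 1.63 in MI. The 5 largest increases in MI were those of Mfap5 (microfibril protein; 4.44 ± 0.26 in MI+BPD and 4.37 ± 0.26 in MI), Serpinf1 (pigment epithelium-derived factor; 3.84 ± 0.21 and 3.94 ± 0.21), Lum (lumican; 3.39 ± 0.15 and 3.31 ± 0.15), Fbln1 (fibulin; 2.89 ± 0.20 and 2.77 ± 0.19) and Tcf21, a transcription factor of cardiac fibroblasts (2.13 ± 0.36 and 2.65 ± 0.36), each rising in both infarct groups.

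The 5 genes of that list that fell in MI were Inmt, a methyltransferase (log2 fold change -2.58 ± 0.37), the chemokine Cxcl14 (-1.68 ± 0.33), the ferritin scavenger receptor Scara5 (-1.26 ± 0.45), the steroid enzyme Hsd11b1 (-1.01 ± 0.15) and the atypical chemokine receptor Ackr3 (-0.85 ± 0.16). In MI+BPD against sham, Inmt (-1.10 ± 0.34), Hsd11b1 (-1.18 ± 0.15) and Ackr3 (-0.59 ± 0.16) fell, while Cxcl14 (-0.77 ± 0.32, adjusted p = 0.0597 in edgeR) and Scara5 (-0.76 ± 0.45, adjusted p = 0.172 in edgeR) did not pass. These falls were smaller in number with library totals alone, where 2 of the 30 were called lower in MI (11.7% of all genes) and 1 in MI+BPD, and Scara5 (-0.50), Hsd11b1 (-0.27) and Ackr3 (-0.14) no longer passed in MI. Scara5 stood at 26.7, 10.6 and 15.7 CPM in MI+BPD, 22.2, 6.27 and 8.88 CPM in MI and 26.8 to 32.3 CPM in sham, so that MI+BPD 1 and MI 1 were close to sham. Without MI 1 its change in MI was -1.98, and without MI 1 and MI+BPD 1 it also passed in MI+BPD (-1.21). The call of Scara5 in MI also ended without MI 2, without MI 3 and without each sham library (adjusted p 0.0571 to 0.127 in edgeR), and that of Inmt in MI+BPD without MI+BPD 2 or 3 and without sham 2 or 3 (0.0583 to 0.0758 in edgeR).

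Genes of activated and scar fibroblasts moved much further. Of 18 such genes 17 rose, 0 fell and 1, Acta2 (smooth muscle actin; 0.41 ± 0.30 in MI+BPD and 0.68 ± 0.30 in MI), did not pass, in MI+BPD as in MI, with a median log2 fold change of 5.41 in MI+BPD and 5.82 in MI. Over all genes tested, 31.8% were called higher in MI+BPD and 37% in MI. This list too was written with results of these data known, so its counts and medians are descriptions. Acta2 passed in MI without MI 3 (0.90) or sham 3 (0.93). Cthrc1, a marker of activated cardiac fibroblasts, stood at 106 ± 30.7 CPM in MI+BPD, 141 ± 31.0 CPM in MI and 0.245 ± 0.146 CPM in sham (SD, n = 3). Comp, a cartilage-type matrix protein, changed by 8.60 ± 0.77 in MI+BPD and 9.22 ± 0.78 in MI, Sfrp2, a secreted Wnt modulator, by 7.88 ± 0.52 and 8.28 ± 0.53, the crosslinking enzyme Lox by 6.02 ± 0.39 and 6.32 ± 0.40, and Cilp, a matrix protein, by 6.42 ± 0.45 and 6.04 ± 0.44. In MI the smallest increases that passed were those of Fap (1.93 ± 0.15 in MI+BPD and 1.74 ± 0.15 in MI), Tagln (1.49 ± 0.34 and 1.83 ± 0.34), Meox1 (3.29 ± 0.38 in each) and Runx1 (3.44 ± 0.30 and 3.51 ± 0.30). The increase of Dpt in MI was thus below the smallest of these, while in MI+BPD it was above those of Fap and Tagln, as a comparison of fold changes without a test.

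**Figure D3:**
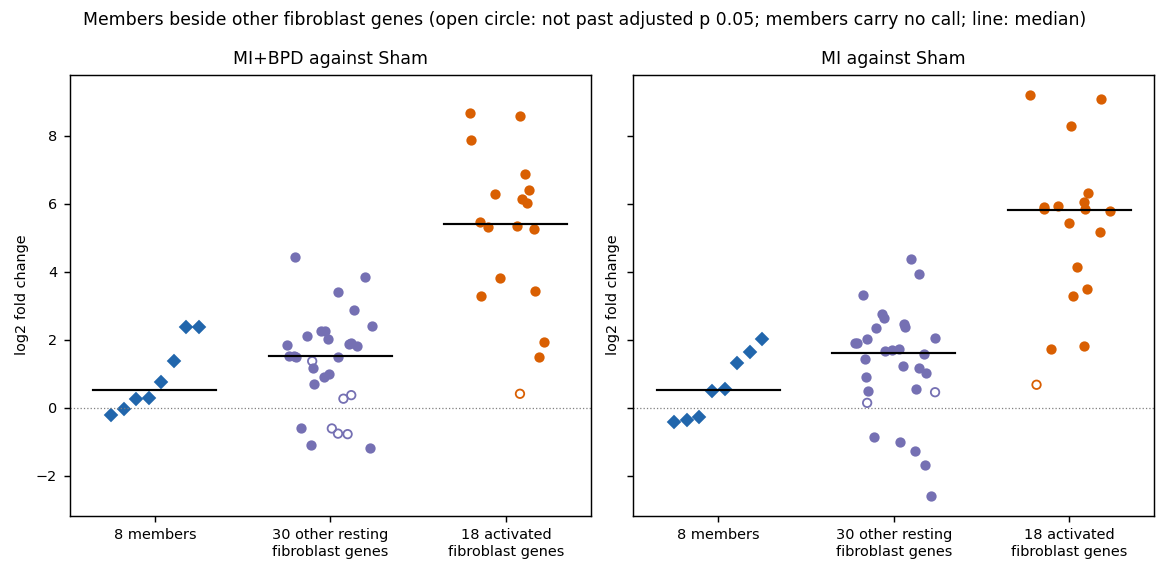
Log2 fold change (vertical axis) against sham in MI+BPD (left) and MI (right) for the 8 genes (diamonds, ordered by value), 30 other resting fibroblast genes and 18 activated fibroblast genes; filled circles passed an adjusted p of 0.05 in edgeR, open circles did not, and lines are medians. The 8 genes have a median of 0.53 in each panel, the other resting genes 1.51 and 1.63, and the activated genes 5.41 and 5.82.

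Relatives and partners of the 8 genes were counted from a list of 79, of which 54 could be tested. In MI against sham 34 rose, 12 fell and 8 did not pass, and in MI+BPD against sham 31 rose, 9 fell and 14 did not pass. Over all genes tested, 37% were called higher and 31.9% lower in MI, and 31.8% and 27.8% in MI+BPD. A gene low in sham could pass the filter through the infarct libraries alone and was then bound to rise. These lists were also written with results of these data known, so their counts are descriptions. With library totals alone only 3 of them were called lower in MI, where 11.7% of all genes were, and 2 in MI+BPD.

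Among matrix partners of dermatopontin, 7 of 8 rose in MI and 7 of 8 in MI+BPD, each against sham. Decorin (Dcn) changed by 1.83 ± 0.18 in MI+BPD and 1.71 ± 0.18 in MI on the log2 scale, biglycan (Bgn) by 3.91 ± 0.31 and 4.22 ± 0.32, and fibronectin (Fn1) by 5.32 ± 0.37 and 5.79 ± 0.37. The Dcn change in MI was close in size to that of Dpt (1.64).

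Of 8 tested relatives and partners of Dpp4, 3 rose and 2 fell in MI+BPD, and 3 rose and 4 fell in MI. They include Fap, the fibroblast activation protein, a closely related surface peptidase. Fap stood at 26.8 ± 2.39 CPM in MI+BPD, 23.5 ± 3.45 CPM in MI and 7.05 ± 1.14 CPM in sham (SD, n = 3), and rose in both infarct groups (adjusted p = 2.85e-05 in MI+BPD and 3.11e-05 in MI in edgeR), whereas Dpp4 overlapped with sham. Dpp8, an intracellular family member, was at -0.14 ± 0.08 in MI+BPD and -0.19 ± 0.08 in MI and did not pass. The DPP4 substrate Cxcl12 (-0.42 ± 0.24 and -0.63 ± 0.24) and the binding partner Cav1 (-0.41 ± 0.19 and -0.52 ± 0.19) passed in MI and not in MI+BPD. The Cav1 call in MI ended when MI 2 or any sham library was left out (adjusted p 0.0554 to 0.0898 in edgeR), and the Cxcl12 call when any MI or sham library was (0.0684 to 0.106 in edgeR). The Cxcl12 call also ended with upper-quartile factors, without the filter on low counts and with a replicate block, and was kept in 8 of 18 alternatives. With library totals alone Cxcl12 (0.10) and Cav1 (0.20) were above 0 in MI. Whether the change of Cxcl12 or Cav1 differed between the infarct groups did not pass a test (adjusted p = 0.686 and 0.783 in edgeR). Without MI+BPD 1 both passed in MI+BPD as well (log2 fold changes -0.86 and -0.55).

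Among 9 actin regulators related to Gsn, 4 rose and 3 fell in MI+BPD, and 5 rose and 3 fell in MI. Capg, the gelsolin-like capping protein of macrophages and other cells, changed by 2.63 ± 0.21 in MI+BPD and 2.71 ± 0.21 in MI, and destrin (Dstn), an actin-depolymerizing factor, by 0.44 ± 0.10 and 0.37 ± 0.10, all of which passed. Supervillin (Svil; -0.43 ± 0.14 and -0.61 ± 0.14) and muscle cofilin (Cfl2; -0.55 ± 0.16 and -0.71 ± 0.16) fell, and with library totals alone these were near 0 (Svil 0.093 and 0.11, Cfl2 -0.022 and 0.0098). In MI+BPD the Svil call ended without MI+BPD 3 or any sham library (adjusted p 0.0527 to 0.0862 in edgeR), and the Cfl2 call without MI+BPD 3, sham 2 or sham 3 (0.0516 to 0.0679 in edgeR).

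Of 11 CAP-family relatives of Pi16, 5 could be tested, and all 5 rose in MI and in MI+BPD. Pi15 changed by 2.80 ± 0.19 in MI+BPD and 2.90 ± 0.18 in MI, Glipr2 by 2.16 ± 0.18 and 2.06 ± 0.18, and Crispld2 by 1.89 ± 0.27 and 2.11 ± 0.27. Glipr1, named after its values were seen, had the largest change of the 5, by 3.83 ± 0.40 in MI+BPD and 3.997 ± 0.40 in MI, beside 2.38 and 2.02 for Pi16.

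Among 6 relatives, selectins and an adaptor of Cd34, 2 rose and 0 fell in MI+BPD, and 2 rose and 1 fell in MI. The sialomucin relatives, Podxl (podocalyxin) and Podxl2, did not pass in either comparison (log2 fold changes -0.13 ± 0.18 and -0.20 ± 0.13 in MI+BPD, -0.37 ± 0.18 and -0.26 ± 0.13 in MI). Without MI 3 both passed as lower in MI (-0.61 and -0.34), and with library totals alone they were above 0. The adaptor Crkl was at -0.06 ± 0.05 in MI+BPD, which did not pass, and at -0.19 ± 0.05 in MI, which passed, and stood at 0.55 in MI with library totals alone. Cd34 itself was at 1.37 in MI+BPD and 1.31 in MI.

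In the Ly6 family, 5 of 15 genes could be tested, and 0 rose and 3 fell in MI+BPD, with 2 and 3 in MI. Ly6c1, carried by capillary endothelium, stood at 82.4 ± 11.2 CPM in MI+BPD, 68.8 ± 15.9 CPM in MI and 131 ± 6.61 CPM in sham (SD, n = 3), and fell by 0.67 ± 0.17 and 0.93 ± 0.17 on the log2 scale in MI+BPD and MI, calls that ended with library totals alone (-0.15 and -0.21). Lynx1 changed by -1.02 ± 0.20 in MI+BPD and -1.42 ± 0.20 in MI, and Ly6e was at 0.26 ± 0.13 in MI+BPD, which did not pass, and at 0.53 ± 0.13 in MI, which passed. Whether the Ly6e change differed between the infarct groups did not pass a test (adjusted p = 0.38 in edgeR), and it passed in MI+BPD as well without MI 1 (0.27).

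Of 8 relatives and plasminogen-system partners of Clec3b, 6 could be tested, and all 6 rose in MI and in MI+BPD. Clec11a was near the floor in sham, with 7, 5 and 11 counts. The related lectin Clec11a stood at 29.4 ± 7.36 CPM in MI+BPD, 40.0 ± 17.8 CPM in MI and 0.639 ± 0.201 CPM in sham (SD, n = 3), and the plasminogen activator Plat changed by 1.99 ± 0.19 in MI+BPD and 1.70 ± 0.19 in MI. Clec3b itself, at 0.29 and -0.36, overlapped with sham.

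Around Dpep1, 4 of 7 tested genes of the leukotriene and glutathione pathway rose in MI and 1 fell, and the counts were 4 and 1 in MI+BPD. The aminopeptidase Anpep changed by 2.40 ± 0.19 in MI+BPD and 2.21 ± 0.19 in MI, the leukotriene helper protein Alox5ap by 1.09 ± 0.24 and 1.13 ± 0.23, and the hydrolase Lta4h by 0.27 ± 0.07 and 0.30 ± 0.07, the last of which did not pass in MI+BPD without MI+BPD 1 (adjusted p = 0.0508 in edgeR). The gene that fell was Alox5, 5-lipoxygenase, which makes leukotrienes with the help of Alox5ap, by 1.25 ± 0.35 in MI+BPD and 2.01 ± 0.36 in MI. It was named after its values were seen. Dpep1 itself was at 0.26 in MI+BPD and -0.40 in MI, the last of these turning to 0.34 with library totals alone.

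**Figure D4:**
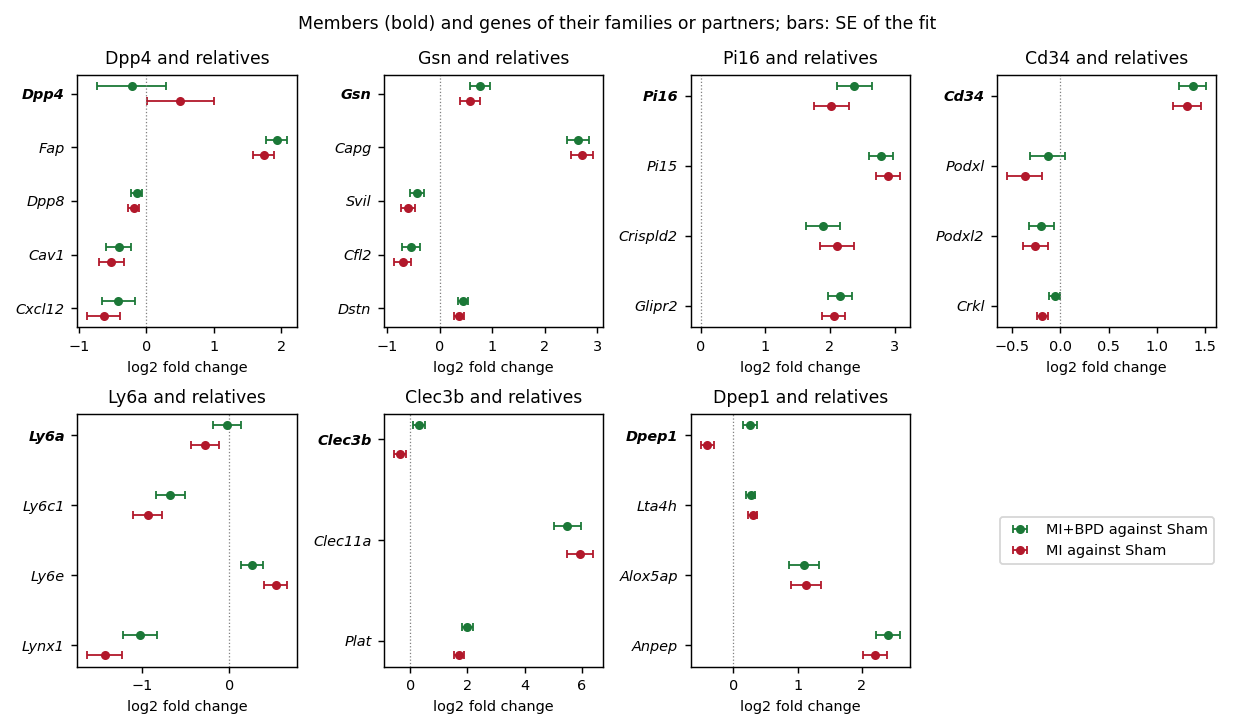
Log2 fold change against sham (horizontal axis) in MI+BPD (green) and MI (red) for 7 of the 8 genes, in bold, and for relatives and partners of each; bars are the SE of the edgeR fit. Fap (1.93 and 1.74) and Clec11a (5.49 and 5.94) lie far to the right of Dpp4 and Clec3b, while the 3 relatives of Pi16 shown lie between 1.89 and 2.90.

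Setting MI+BPD beside MI bears on the study's question, whether fibroblast activation is lower with the treatment. In edgeR 0 of 15138 genes passed (0%, smallest adjusted p = 0.369, 2043 at an unadjusted p under 0.05), and therefore 0 of the 8. Of the 8 genes, 7 had a log2 fold change above 0 and 1, Dpp4, below it, with a median of 0.31 beside 0.0028 over all genes. Dpt (0.75 ± 0.12) and Dpep1 (0.67 ± 0.11) were the 2 whose libraries did not overlap between the groups, both higher in MI+BPD, where 6.63% of all genes lay higher without overlap. The other 6 overlapped: Clec3b (0.65 ± 0.21), Pi16 (0.36 ± 0.26), Ly6a (0.25 ± 0.16), Gsn (0.20 ± 0.19), Cd34 (0.05 ± 0.14) and Dpp4 (-0.72 ± 0.49).

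This comparison depended on the tool and on a single library. DESeq2 called 48 of the 14364 genes it gave an adjusted p (0.334%), 22 of them higher (0.153%) and 26 lower (0.181%), and Dpt and Dpep1 were among these. Without MI 3 edgeR called 1353 genes (8.76%), 1126 of them higher (7.29%) and 227 lower (1.47%). The members called higher there were 2, Dpt (log2 fold change 0.71) and Dpep1 (0.59). As the members were chosen with their values known, their calls are descriptions, and no effect of BPD is read from them. In the 18 alternatives that gave a value, the log2 fold change ran from 0.54 to 0.87 for Dpt and from 0.45 to 0.76 for Dpep1, above 0 in all 18. The libraries of both genes did not overlap between the groups, with TMM or with library totals alone. Leaving out a library or rescaling could thus hardly turn the sign, and nothing is read from it. With all libraries, the fold changes of Dpt and Dpep1 lay at percentiles 97.3 and 96.4 of all genes tested. Relative to Pdgfra the difference of MI+BPD minus MI was 0.82 for Dpt, 0.73 for Dpep1 and 0.71 for Clec3b on the log2 scale, and -0.39 to 0.38 for the other 5. The muscle markers, at 38276 to 57999 CPM in MI+BPD and 23033 to 40126 CPM in MI, overlapped between the groups through MI 3. Of these 12 markers 12 had a log2 fold change above 0 in MI+BPD against MI and 0 were called, with a median of 0.66, and their part in the Dpt and Dpep1 differences was not tested.

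The other fibroblast lists showed 0 calls in MI+BPD against MI in edgeR (0 of 30 resting and 0 of 18 activated genes), with median log2 fold changes of -0.04 and -0.17. Without MI 3, 1 of the 30 resting genes was called higher (7.29% of all genes) and 2 of the 18 activated genes lower (1.47%). Of the resting genes named above, the ones with the largest difference were Inmt, at 2.17 ± 1.05 CPM in MI+BPD and 0.770 ± 0.273 CPM in MI (SD, n = 3, log2 fold change 1.48 ± 0.37, adjusted p = 0.369 in edgeR), and Cxcl14, at 10.1 ± 2.76 CPM in MI+BPD and 5.36 ± 1.99 CPM in MI (SD, n = 3, log2 fold change 0.91 ± 0.32, adjusted p = 0.369 in edgeR). These 2 were singled out after their values were seen. Postn, the periostin gene of activated fibroblasts, had a log2 fold change of 0.40 ± 0.24 and did not pass. It stood at 1936, 3439 and 3603 CPM in MI+BPD and at 2386, 2280 and 2135 CPM in MI. MI+BPD 1 thus lay below every MI library, and MI+BPD 2 and 3 above them.

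In MI+BPD 1, Pi16 (157 CPM), Gsn (1010 CPM) and Cd34 (270 CPM) were at their lowest of the MI+BPD group, and the other 5 genes at their highest. This library also had the highest mesothelial sum of its group (131 CPM), the highest muscle marker sum of the infarct libraries (57999 CPM) and a mitochondrial share of 25.7% of counts, against 17.6% and 17.7% in MI+BPD 2 and 3. In the MI group, MI 1 was highest in Dpt, Gsn, Dpep1, Clec3b, Ly6a, Cd34 and Dpp4, and MI 3 in Pi16. How these go together was not tested.

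Likeness to Dpt was measured as the root mean square difference of log2 CPM, centred on each gene's mean, over the 9 libraries, for all tested genes with a mean of at least 1 CPM. The nearest was Galnt16, an enzyme that starts O-glycan chains, at 0.21 log2 units, with 34.2 CPM in MI+BPD, 23.5 CPM in MI and 6.37 CPM in sham. Then came the G protein-coupled receptor Mrgprf (0.26), AI427809 (0.26), the complement-decay protein Cd55 (0.27), which also marks Pi16-positive fibroblasts, and Tc2n (0.28). AI427809 and Tc2n were near the floor in sham, with 4, 4 and 5 counts and 2, 2 and 4 counts. There the prior count of 2 narrows differences. Their fitted log2 fold changes in MI against sham were 2.28 and 2.63, above that of Dpt (1.64). Of the members, Pi16 was nearest to Dpt (0.38, rank 71 of 13615), followed by Cd34 (0.47, rank 351), Gsn (0.72, rank 2349), Clec3b (0.99, rank 6195), Dpep1 (0.99, rank 6198), Ly6a (1.05, rank 7415) and Dpp4 (1.16, rank 9147).

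Clec3b had 2 members among its nearest genes, Dpep1 (0.23, rank 5) and Ly6a (0.26, rank 14). The ranks were lower in the other direction. Seen from Dpep1, Clec3b was at rank 43 and Ly6a at rank 220. Seen from Ly6a, Dpep1 was at rank 2463 and Clec3b at rank 2539 of 13615. With predicted names left out, the nearest to Clec3b were Mfsd4a (0.19) and the collagen Col23a1 (0.21), and to Dpep1 Fez1 (0.15) and Mfsd4a (0.15). The nearest genes to Pi16 were Kcnt2 (0.19) and Rab23 (0.21), to Cd34 Carhsp1 (0.085) and Gpr183 (0.088), to Gsn Zfp41 (0.12) and Psd3 (0.12), and to Ly6a AU041133 (0.11) and Sigirr (0.12). For Dpp4 they were Bank1 (0.25) and Irf4 (0.27), a transcription factor of lymphocytes, both of which were at their highest in MI 1, as Dpp4 was. All such differences are descriptions over libraries that share their groups.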

How the data were processed

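RNA of mouse left ventricle was sequenced in 9 libraries. The authors deposited raw counts, whole numbers for each gene symbol that were not normalized; the submitters' processing notes name STAR, without a version, and the builds mm10, GRCm39 and mm39, without a role. The sources used here name no counting program, strand setting or annotation, so reads of antisense partners cannot be told apart (Pi16, Cd34 and Dpp4 each have 1 with exon overlap in GENCODE M21; those of Cd34 and Dpp4 had at most 8 and 2 counts). Counts were fitted in R 4.3.3 with edgeR 4.0.16 (limma 3.58.1): TMM factors, filterByExpr (minimum count 10, minimum total 15), a quasi-likelihood fit (robust) with 1 mean per group and 6 residual degrees of freedom, 2-sided tests, Benjamini-Hochberg over 15138 genes, called at an adjusted p under 0.05. SE follows from the F statistic. In simulated data for MI against sham (14851 genes tested), 200 genes were changed up or down at random before the filter. There 69.7% of 2-fold and 91.9% of 4-fold changes were called, with 12 false calls. Far more genes were called in the real comparison (68.9%), so these rates need not hold for it. Reads carry no molecular identifiers. Replicates of each group differed by more than sampling noise.

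The members and lists were chosen with earlier results of these data known. Named genes were, per list, the 5 largest and 5 smallest changes in MI against sham, or the 3 relatives of highest mean CPM per member with Fap, Capg, Ly6c1 and Podxl, and the nearest 5 genes to Dpt and 2 to each other member; predicted names were left out, and 1 relative is not reported here. Log2 CPM used a prior count of 2. Alternatives were DESeq2 1.42.0, other scaling, filters, a replicate block, fewer groups and each library left out; leaving out MI 1 and MI+BPD 1 together was added after seeing the data.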

Additional observations from a re-analysis of the deposited data

How the results depend on the processing

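The counts of genes called against sham stayed within 1.5 times under each alternative run. With library totals only, members called higher were 7 in MI and 7 in MI+BPD, where 69.3% and 60.3% of all genes were. Members called lower in MI were 0, resting genes called lower 2 in MI and 1 in MI+BPD, and relatives 3 and 2. Of all genes, 11.7% were then called lower in MI. The replicate block gave 2 members called lower in MI against sham (Dpep1 and Clec3b, where 30.8% of all genes were). It ended the call of Gsn there (log2 fold change 0.57) and moved no other count given by over 1.5 times. Deviations of same-numbered libraries from their group means correlated by -0.16 to 0.19. Between MI and MI+BPD they were 0.14, 0.19 and -0.16 for replicates 1, 2 and 3. With 3 libraries a group, this cannot show whether same-numbered libraries share a batch or a pairing. Without MI 1 and MI+BPD 1, members called lower in MI were 2 (30.9% of all genes). Resting genes called lower in MI+BPD were then 5 of 30, beside 27.8% of all genes in the fit of all libraries. Over the fits that left out 1 library, members called lower in MI ran from 1 to 2 (2 without MI 1, Dpep1 and Ly6a, where 29.1% of all genes were; 28.5% to 32.2% over these fits). In MI+BPD against MI these fits gave 0 to 1353 genes, 0 to 2 members called higher, resting genes 0 to 1 higher, activated genes 0 to 2 lower and relatives 0 to 2 higher and 0 to 1 lower, all of the higher values without MI 3. In that fit 7.29% of all genes were called higher and 1.47% lower. DESeq2 gave 48 genes in MI+BPD against MI and 2 members called higher, where 0.153% of all genes were. The cause was not tested.

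Most directions that turned did so with library totals only. In MI against sham with library totals Dpep1 was at 0.34, Svil 0.11, Cfl2 0.0098, Podxl 0.35, Podxl2 0.47, Crkl 0.55, Dpp8 0.54, Cav1 0.20, Cxcl12 0.10, Ly6a 0.46 and Clec3b 0.38, and in MI+BPD against sham Svil was at 0.093, Podxl 0.39, Podxl2 0.33, Crkl 0.47, Dpp8 0.38, Ly6a 0.50, Dpp4 0.30, Cav1 0.11 and Cxcl12 0.079. In MI+BPD against MI, Cd34 was then at -0.14. Leaving out libraries turned Dpp4 without MI 1 (-0.38 in MI against sham and 0.16 in MI+BPD against MI) and without MI 1 and MI+BPD 1 (-0.40 in MI against sham). It also turned 2 values near 0, Ly6a in MI+BPD against sham (to at most 0.019; without the filter 0.013) and Cd34 in MI+BPD against MI (to -0.050 at the lowest). Relative to Pdgfra, a different quantity, Gsn was at -0.78, Cd34 -0.18, Dpep1 -1.27 and Clec3b -1.25 in MI+BPD, and Gsn was at -1.02, Cd34 -0.28 and Dpp4 -1.34 in MI, each against sham. Of 1692 values of other named genes under the alternatives, 42 lost and 25 gained the call with direction kept, 15 turned, 2 of them not called either way, and the rest kept direction and side of the threshold. Of 456 member values, 417 moved by less than the spread between replicates. Among members, the call of Gsn in MI ended in 5 of 18 alternatives and Dpep1 in MI+BPD against sham gained a call in 6. Depth limits Dpp4 most, with 43 to 379 counts per library.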
